A study of Mus musculus with 6 samples.

Results

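Carboxylesterases are serine hydrolases of the endoplasmic reticulum that split ester, amide and thioester bonds in drugs, inhaled or ingested foreign compounds and neutral lipids. In rodents the genes have multiplied into tandem arrays, so that mice carry many closely related copies where humans carry few. The human enzymes of the CES1 type prefer esters with a bulky acyl group and those of the CES2 type esters with a bulky alcohol group. Liver and intestine are the richest sources, and lung epithelium also has this activity.

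Transcript levels of 9 mouse carboxylesterase genes given by name were examined: Ces1d, Ces1e, Ces1f and Ces1g of the Ces1 group and Ces2a, Ces2b, Ces2c, Ces2e and Ces2g of the Ces2 group. They are 9 of the 36047 genes to which the deposited transcripts could be assigned, and 9 of 20 carboxylesterase genes in the GENCODE vM21 annotation, the other 11 being described where they bear on these. RNA-seq had been run on polyA RNA of wild-type (WT) MLE-12 cells. The line is epithelial and was derived from lung tumours of mice with the viral large T antigen driven by the surfactant protein C promoter. The CSE group (3 libraries) received 5% cigarette smoke extract with an optical density of 2.0 in the culture medium at 30% cell density, and the PBS group (3 libraries) received the same volume of phosphate-buffered saline. Both groups were collected after 24 h. The labels do not tell whether replicates were grown separately, so p-values measure only how the libraries vary, and that variation may be technical.

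The libraries held 12093009 to 24050167 estimated counts, and in the deepest library 3 counts, the limit that a count of 0 allows, correspond to 0.126 CPM, the count scaled to library depth. The labels' extraction text names lung tissue, so markers of several cell types were read. The lung epithelial factor Nkx2-1 stood at 106 TPM (a level scaled to transcript length and depth) in CSE and 121 TPM in PBS and was not called. Of the 5 tested epithelial markers, 3 fell (Krt19, Cdh1 and Krt8), and the 6 listed summed to 710 to 804 TPM in CSE, against 1280 to 1400 TPM in PBS. Of 7 alveolar type 2 markers, which summed to 31.1 to 37.5 TPM in CSE and 37.3 to 42.8 TPM in PBS, most of the level was Abca3. Sftpc fell to 0.942 TPM in CSE, against 3.09 TPM in PBS, Sftpa1 had no count in any library and Sftpd had 1. Markers of the cells richest in carboxylesterases were near 0, with summed levels up to 0.192 TPM in CSE and 0.217 TPM in PBS for 5 hepatocyte genes and up to 0.939 TPM in CSE and 0.254 TPM in PBS for 5 enterocyte genes. Summed alveolar type 1 markers were lower in CSE (836 to 901 TPM, against 1370 to 1450 TPM in PBS), as were fibroblast-type markers (477 to 544 TPM in CSE, against 868 to 1130 TPM in PBS), most of which was Dcn. Of the 3 tested fibroblast-type markers Dcn and Col1a1 fell, while Pdgfra rose (4.49 TPM in CSE, against 2.67 TPM in PBS). Their part in the results on carboxylesterases was not tested.

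The genes lie in a pair of clusters on chromosome 8 (GRCm38). The 4 Ces1 members span 171.2 kb on the minus strand (93166068 to 93337308) and the 5 Ces2 members span 235.5 kb on the plus strand (104734003 to 104969537), with 11396.7 kb between them. No other annotated gene with a deposited transcript overlapped any of the 9. Promoter stretches were compared for words that copies share upstream of the genes. They are given here for the member with most counts, Ces1g, and for Ces1e of the same cluster, which had no count. Also printed are the stretches of 3 Ces2 members that share words. All were read from RefSeq promoter windows of GRCm38.p6 (250 bases before to 50 after the start), which held 6 of the 9 members, and are printed 5′ to 3′ on the gene's strand as far as the start annotated by GENCODE, which for Ces1g lies 99 bases upstream of the RefSeq start. Capitals mark bases covered by shared words of 8 bases. A word counted as shared if found in both Ces1 stretches, or in at least 3 of the 4 Ces2 stretches searched (Ces2a, Ces2c, Ces2e and Ces2g). Overlapping words join, and the longest capital run of Ces1e does not occur whole in Ces1g. Capitals cover 29 of 151 bases in Ces1g and 20 of 250 in Ces2e. Ces2c had 0 capital bases and is not printed. Unrelated promoters were not compared in this way.
Ces1g, chr8:93337309-93337459, minus strand: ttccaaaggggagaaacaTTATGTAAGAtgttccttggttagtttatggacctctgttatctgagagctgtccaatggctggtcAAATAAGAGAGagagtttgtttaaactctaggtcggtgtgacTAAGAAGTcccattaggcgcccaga
Ces1e, chr8:93229620-93229869, minus strand: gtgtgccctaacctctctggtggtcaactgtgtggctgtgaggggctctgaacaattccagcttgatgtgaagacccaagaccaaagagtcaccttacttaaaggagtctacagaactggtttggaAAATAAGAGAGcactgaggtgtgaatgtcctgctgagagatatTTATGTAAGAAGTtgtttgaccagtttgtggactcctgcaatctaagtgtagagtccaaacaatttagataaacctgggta
Ces2e, chr8:104926010-104926259, plus strand: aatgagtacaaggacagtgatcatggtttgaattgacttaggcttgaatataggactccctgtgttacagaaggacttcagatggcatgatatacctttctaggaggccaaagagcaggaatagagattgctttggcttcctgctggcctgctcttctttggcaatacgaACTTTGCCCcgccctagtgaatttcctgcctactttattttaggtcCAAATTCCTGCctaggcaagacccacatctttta
Ces2a, chr8:104733753-104734002, plus strand: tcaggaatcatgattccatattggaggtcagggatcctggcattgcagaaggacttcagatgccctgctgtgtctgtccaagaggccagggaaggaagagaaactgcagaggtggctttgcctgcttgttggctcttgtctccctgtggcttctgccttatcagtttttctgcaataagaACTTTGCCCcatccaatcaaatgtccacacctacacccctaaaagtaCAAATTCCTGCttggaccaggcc
Ces2g, chr8:104961468-104961717, plus strand: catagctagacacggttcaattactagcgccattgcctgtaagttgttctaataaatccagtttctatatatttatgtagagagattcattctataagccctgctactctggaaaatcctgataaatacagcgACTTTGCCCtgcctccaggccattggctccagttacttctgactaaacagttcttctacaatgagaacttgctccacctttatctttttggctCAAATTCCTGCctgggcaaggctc

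The longest run shared by the Ces1g and Ces1e stretches was AAATAAGAGAG, of 11 bases. Ces1g was the member with most counts and Ces1e had none. Ces2a and Ces2e shared 17 bases in a row, and Ces2e and Ces2g shared 13. The stretch CTTTGCCC, chosen after the capitals were seen, occurred on either strand in the 300-base windows of Ces2a, Ces2e and Ces2g. The Ces2c window lacked it, and 1.66% of 32817 promoter windows of the same length held it. A capital word had to be in at least 3 Ces2 stretches, so its presence there was fixed by that choice and tests nothing. The 3 genes with it had different levels: Ces2a had no count, Ces2g had 58 counts and Ces2e had 138. Motifs of factors that respond to smoke were searched for in the same windows on both strands. The antioxidant response element TGACNNNGC was in 0 of the 6 member windows and in 12.4% of all windows, the core of the xenobiotic response element GCGTG in 0 of 6 and in 32.4%, and the AP-1 site TGANTCA in 0 of 6 and in 7.81%. That says only that these letters were not in these windows. Ces1d, Ces1f and Ces2b had no window, so of the members called only Ces1g was searched. Its window reached 151 bases before the start annotated by GENCODE.

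Carboxylesterase transcripts were scarce in MLE-12 cells, and in CSE most of their counts were of the Ces1 group. The Ces1 members had 465 counts in CSE and 114 in PBS, and the Ces2 members had 145 in CSE and 91 in PBS. In PBS replicate 2 both groups had 39 counts, and 33 of the 114 Ces1 counts in PBS were of Ces1f. Together the 9 members had 165, 271 and 174 counts in the CSE libraries, against 49, 78 and 78 counts in the PBS libraries. These counts are not scaled to depth. In TPM the sums were 14.0, 10.3 and 8.7 in CSE, against 7.59, 5.91 and 6.32 in PBS, and these did not overlap either. Among all tested genes, taken singly, 14.0% had every CSE library above every PBS library in CPM. In either direction 30.4% were separate. Ces1g made up 63.1% of the counts of the 9 members in CSE and 34.1% in PBS. The other 8 members together had 63, 101 and 61 counts in CSE, against 33, 52 and 50 in PBS. Their summed level overlapped between the groups, with 8.02, 5.45 and 4.28 TPM in CSE and 6.77, 4.89 and 5.24 TPM in PBS. A short transcript of Ces1f, Ces1f-203, gave 3.03 of the mean 5.92 TPM in CSE and 4.18 of the mean 5.63 TPM in PBS. Scaled to depth but not to length, the pooled counts of these 8 members were 4.26 CPM in CSE and 2.65 CPM in PBS. In bulk RNA a change in the number of expressing cells cannot be told apart from a change in RNA per cell.

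Of the 9 members, 7 had at least 1 count and 5 passed the filter on low counts and were tested (Ces1d, Ces1f, Ces1g, Ces2e and Ces2g). With p-values of edgeR's quasi-likelihood test adjusted over 13451 genes by Benjamini and Hochberg, Ces1g and Ces1d rose in CSE, none of the 5 fell, and 3 were not called. Over all tested genes 4.32% were called higher, 7.12% lower and 11.4% in either direction. The median log2 change was 0.92 over the 5 and 0.01 over all tested genes, and members that pass such a filter are in part those that are high in a group.

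**Figure D1:**
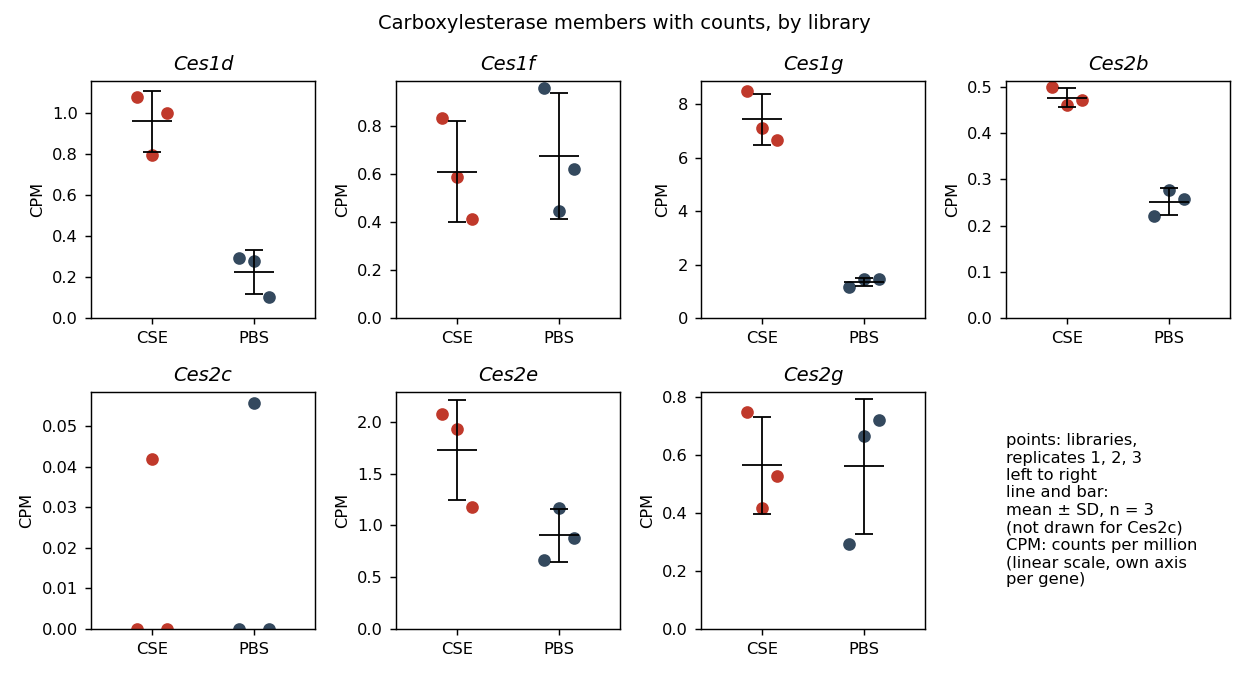
CPM (counts scaled to depth, a linear axis for each gene) in each CSE and PBS library for the 7 members with counts, with mean ± SD (n = 3) except for Ces2c, which had 2 counts in all. The 3 CSE points lie above the 3 PBS points for Ces1d, Ces1g, Ces2b and Ces2e and are mixed with them for Ces1f, Ces2c and Ces2g.

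Ces1g encodes a lipid ester hydrolase whose loss in mice raises liver and blood lipids. It had 102, 170 and 113 counts in the CSE libraries, against 16, 26 and 28 counts in the PBS libraries. Per length this was 5.97, 4.84 and 4.42 TPM in CSE and 0.822, 1.02 and 1.08 TPM in PBS. Every CSE library was above every PBS library. The means were 5.08 ± 0.801 TPM in CSE and 0.974 ± 0.135 TPM in PBS (SD, n = 3 each). Ces1g rose by 2.44 ± 0.19 on the log2 scale (SE; a 5.42-fold change; edgeR, adjusted p = 1.87e-05), the 11th highest log2 change among the 13451 genes. It has a single annotated transcript of 2388 bases, and 6.2% of the 31-base words of that transcript occur in transcripts of other genes.

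Ces1d, also known as triacylglycerol hydrolase, releases fatty acids from stored triglyceride in mouse liver and fat. It had 13, 19 and 17 counts in the CSE libraries, against 4, 5 and 2 counts in the PBS libraries. Counts were few but the groups did not overlap, and 97.2% of them lay on the coding transcript Ces1d-201 (2004 bases). The levels were 0.895 ± 0.223 TPM in CSE and 0.194 ± 0.0872 TPM in PBS (SD, n = 3 each). Ces1d rose by 2.09 ± 0.46 on the log2 scale (edgeR, adjusted p = 0.0138), and the ratio of summed counts scaled to depth was 4.29 with a 95% interval of 2.2 to 9.14 (exact binomial, counting error only). The call was lost without CSE replicate 3 (edgeR, adjusted p = 0.0625) and without PBS replicate 3 (edgeR, adjusted p = 0.074), the library with 2 counts. DESeq2 gave 2.13 ± 0.70 with an unadjusted p of 0.00227 and no adjusted p for so low a gene. Ces1d shared 7.5% of its words with other carboxylesterases, and its estimate was within 0.05 of a whole number in 6 of 6 libraries. The same held in 6 of 6 libraries for Ces2e and 5 of 6 for Ces1g, but in 2 of 6 for Ces1f and Ces2g and in 1 of 6 for Ces2b.

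The 2 members between Ces1d and Ces1g on the chromosome behaved otherwise. Ces1e, or egasyn, which holds beta-glucuronidase in the endoplasmic reticulum of mouse liver, had no count in any library. Over a group, a count of 0 allows up to 0.0567 CPM in CSE and 0.059 CPM in PBS. Ces1f had 10, 14 and 7 counts in the CSE libraries, against 13, 8 and 12 in the PBS libraries, and the groups overlapped. Its log2 change was −0.13 ± 0.43 (edgeR, adjusted p = 0.881), and its sign turned without CSE replicate 3 and without PBS replicate 1.

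The total for Ces1f was not that of its coding transcript. A retained-intron transcript of 439 bases, Ces1f-203, held 90.5% of the counts, with 9.0, 10.6 and 4.82 in CSE and 12.9, 8.0 and 11.8 in PBS. The coding transcript of 1926 bases, Ces1f-201, had 1, 3 and 1 counts in the CSE libraries and none in the PBS libraries. The exact binomial interval of that ratio starts at 0.882 and so includes 1. Because TPM divides by length, the short transcript gave Ces1f 3.18 ± 1.61 TPM in CSE and 4.18 ± 1.36 TPM in PBS (SD, n = 3 each), the second highest member level in CSE and the highest in PBS. The coding transcript held 7.92% of the counts. Of the words of Ces1f-203, 13.4% occur in transcripts of 19 other genes.

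Next to Ces1g on the other side, Ces1h had 1, 2 and 4 counts in the CSE libraries and none in the PBS libraries, and the exact binomial interval of the depth-scaled ratio starts at 1.39. Too low for the test, it gave a two-sided exact permutation p of 0.1 over 3 against 3 libraries, the smallest that this design allows, so no p under 0.05 could be reached. Ces1h shared 11.6% of its words with other genes, most often with Ces1e. Ces1a had 18 counts in CSE and 16 in PBS, and Ces1b and Ces1c had 1 count each over all libraries. With no filter on low counts, the log2 change of Ces1h was 4.3 ± 1.89 and was not called (edgeR, adjusted p = 0.159). Within the Ces1 cluster the genes called higher in CSE were thus Ces1d and Ces1g. Ces1h, on 7 counts, and the coding transcript of Ces1f, on 5 counts, had counts in CSE only, too few for a call.

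**Figure D2:**
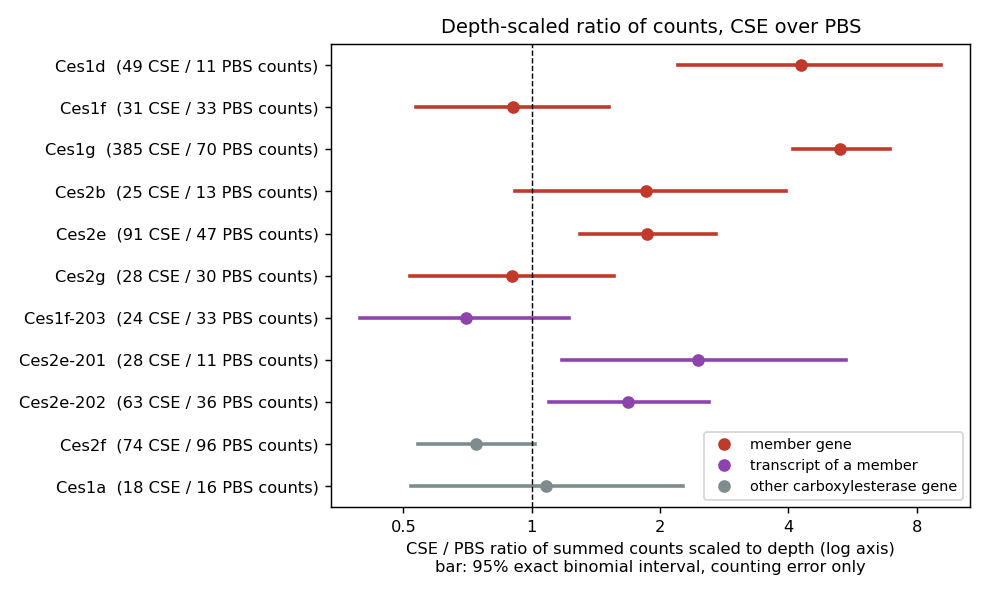
Ratio of summed counts in CSE over PBS, scaled to library depth (log axis), with 95% exact binomial intervals that cover counting error only, for member genes with at least 10 counts, 3 of their transcripts and 2 other carboxylesterase genes. The intervals of Ces1g (4.09 to 6.93), Ces1d and Ces2e lie above 1, and those of Ces1f, Ces2b and Ces2g include 1.

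In the Ces2 cluster no member was called. Ces2e had 25, 46 and 20 counts in the CSE libraries, against 9, 21 and 17 in the PBS libraries. After scaling to depth this was 2.08, 1.93 and 1.18 CPM in CSE and 0.664, 1.17 and 0.878 CPM in PBS, so the groups were separate by a narrow margin between CSE replicate 3 and PBS replicate 2. In TPM the Ces2e groups overlapped, with 0.856 in CSE replicate 3 and 0.922 in PBS replicate 2. Ces1d, Ces1g and Ces2b were also separate in CPM. Among all tested genes 14.0% had CSE above PBS in this way, 16.4% had CSE below PBS, and 30.4% were separate in either direction. The log2 change of Ces2e was 0.92 ± 0.33 and missed the threshold (edgeR, adjusted p = 0.102, and 0.077 to 0.4 over the alternative settings). Scaled to depth, summed counts gave a ratio of 1.86 (95% interval 1.3 to 2.71, counting error only). Levels were 1.29 ± 0.378 TPM in CSE and 0.74 ± 0.18 TPM in PBS (SD, n = 3 each).

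Ces2e has a pair of coding transcripts that differ in length. The shorter, Ces2e-202 (1999 bases), held 71.8% of the counts, with 8.7, 41.8 and 12.9 in CSE and 9.0, 14.8 and 12.0 in PBS. The longer, Ces2e-201 (2699 bases), had 16.3, 4.24 and 7.14 in CSE and 0, 6.24 and 4.98 in PBS. The balance between them differed among the CSE libraries, with more of the longer form in CSE replicate 1 and more of the shorter in CSE replicate 2, so no shift between forms can be read from these counts.

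Ces2b had 6, 11 and 8 counts in the CSE libraries, against 3, 5 and 5 in the PBS libraries. It did not pass the filter, and its ratio of 1.85 had an interval that includes 1 (0.912 to 3.94), while the CPM values of the groups did not overlap (exact permutation p = 0.1, two-sided, the smallest possible). Of its words 26.4% occur in transcripts of other genes, 462 of them, so its estimates are uncertain. Ces2g had 9, 10 and 9 counts in CSE and 4, 12 and 14 in PBS, a log2 change of −0.09 ± 0.44 (edgeR, adjusted p = 0.926) with overlapping groups. Its sign turned without CSE replicate 2, without PBS replicate 2 and without PBS replicate 3.

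The last Ces2 members were at or near 0. Ces2a, a lipase of mouse liver, had no count in any library. Ces2c, an intestinal and liver enzyme that also cleaves acylcarnitines, had 1 count in CSE replicate 2 and 1 in PBS replicate 2, and 58.2% of its words are shared with other genes. Among the carboxylesterases outside the 9, Ces2f, which lies between Ces2e and Ces2g, had 17, 35 and 22 counts in CSE and 22, 27 and 47 in PBS. All of these counts were on a transcript annotated for nonsense-mediated decay, and CSE was below PBS in CPM without overlap, but the log2 change of −0.40 ± 0.28 was not called (edgeR, adjusted p = 0.396). Of the 11 genes outside the 9, Ces2f alone passed the filter. Ces2d-ps and Ces3a had no count, and Ces2h, Ces3b, Ces4a and Ces5a had at most 2 counts each.

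In order of level, the CSE libraries had Ces1g, then Ces1f, Ces2e, Ces1d, Ces2g (0.326 ± 0.111 TPM) and Ces2b (0.212 ± 0.00542 TPM, SD, n = 3). Ces1g and Ces1f overlapped there, as did Ces2e and Ces1d, while the other neighbours in that order were separate. In the PBS libraries the order was Ces1f, Ces1g, Ces2e, Ces2g (0.328 ± 0.139 TPM), Ces1d and Ces2b (0.127 ± 0.013 TPM, SD, n = 3). There Ces1g overlapped Ces2e, Ces2g overlapped Ces1d, and Ces1d overlapped Ces2b.

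Genes next to the clusters were read to see whether they changed with the members. Within 500 kb of a member lie 42 protein-coding genes that are no carboxylesterase, 29 of them tested. Of these, 1 fell and none rose, where 4.32% of all tested genes were called higher and 7.12% lower. Only 2 of the 29 lie by the Ces1 cluster, too few to describe the surroundings of Ces1d and Ces1g. The matrix metalloproteinase gene Mmp2, on the far side of the Ces1 cluster from Ces1g, fell by 0.32 ± 0.08 (edgeR, adjusted p = 0.0271). Gnao1, a G protein subunit gene on the side of Ces1g, was at −0.37 ± 0.20 and was not called. The 27 tested neighbours of the Ces2 cluster lay between −0.91 for Plekhg4 and 0.27 for Cmtm3, and none was called (edgeR). They were Tk2, Cklf, Cmtm3, Cmtm4, Dync1li2, Terb1, Nae1, Car7, Pdp2, Rrad and Ciao2b before Ces2a, and Cbfb, D230025D16Rik, B3gnt9, Tradd, Fbxl8, Hsf4, 4931428F04Rik, Exoc3l, E2f4, Elmo3, Lrrc29, Tmem208, Fhod1, Slc9a5, Plekhg4 and Tppp3 after Ces2g. Their median with the Ces1 neighbours was −0.04.

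**Figure D3:**
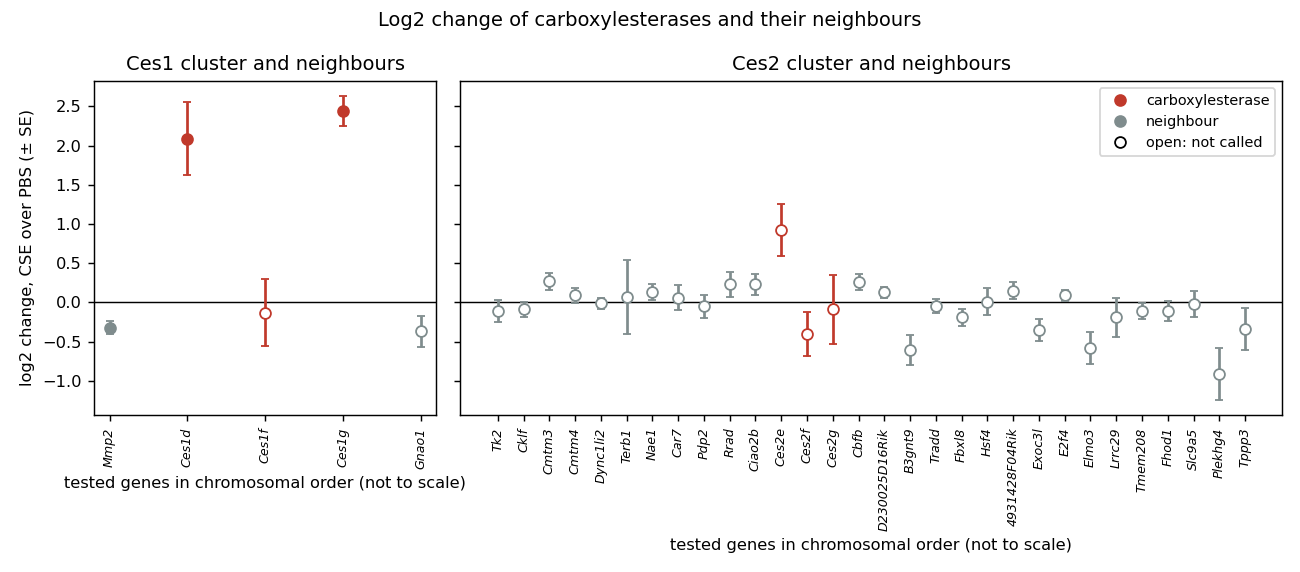
Log2 change in CSE over PBS (± SE, edgeR) of the tested carboxylesterases and of tested protein-coding neighbours within 500 kb, in chromosomal order and not to scale. Filled points passed the threshold: Ces1d, Ces1g and the neighbour Mmp2, and no gene of the Ces2 panel.

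Enzymes of other families that cleave esters and lipids changed in both directions. Of 16 listed, 12 were tested, of which 2 rose, 2 fell and 8 were not called, with a median log2 change of −0.04. Esterase D, Esd, which completes the glutathione-dependent removal of formaldehyde, averaged 361 ± 5.47 TPM in CSE and 280 ± 8.94 TPM in PBS (SD, n = 3 each) and rose by 0.49 ± 0.09. Bphl, a hydrolase that activates ester prodrugs, averaged 32.1 ± 3.89 TPM in CSE and 18.5 ± 2.39 TPM in PBS and rose by 0.79 ± 0.13. Monoglyceride lipase, Mgll, fell by 0.77 ± 0.10 and hormone-sensitive lipase, Lipe, by 0.42 ± 0.11, in the direction opposite to Ces1d. Aadac, another drug-cleaving esterase of liver, had no count.

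Several receptors that control carboxylesterase genes in mouse liver were barely present. Nr1i2 (PXR) had 0 counts in CSE and 1 in PBS, Nr1i3 (CAR) had 6 and 8, Hnf4a had 1 and 3, and Ppara had 17 and 20. Other receptors of the same list were expressed and not called. Nr1h3 was at 0.28 ± 0.11 (16.0 TPM in CSE and 14.2 TPM in PBS). Nr1h2 stood at 87.8 TPM in CSE and 98.1 TPM in PBS, and Rxra at 3.74 TPM in CSE and 3.81 TPM in PBS. The sensors of smoke constituents were expressed but not called: Nfe2l2, which encodes NRF2, was at 0.17 ± 0.07 (506 TPM in CSE and 477 TPM in PBS) and Ahr at −0.37 ± 0.15 (2.44 TPM in CSE and 3.38 TPM in PBS). Of 10 tested regulators, the small Maf gene Mafk, which encodes a partner of NRF2, fell by 0.34 ± 0.08 (edgeR, adjusted p = 0.0212), none rose and 9 were not called. Of their target genes, 12 of 18 tested NRF2 targets rose and none fell (median log2 change 0.42), and 5 of 6 tested AhR targets rose and none fell (median 2.25). Over all tested genes 4.32% were called higher and 7.12% lower. Both lists were chosen with earlier results of these data known. The NRF2 targets of smallest p were Gsta4 (log2 change 1.92 ± 0.07), Slc7a11 (1.72 ± 0.09), Nqo1 (1.97 ± 0.12) and Gclm (1.33 ± 0.09). The AhR targets of smallest p were Cyp1a1 (9.07 ± 0.18), Tiparp (2.4 ± 0.08), Aldh3a1 (2.84 ± 0.10) and Ugt1a6a (2.11 ± 0.09).

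Genes whose libraries followed a pattern like that of a member were sought among 9888 genes with at least 5 TPM, by distance in log2 CPM centred on each gene's mean over the 6 libraries. For Ces1g, a query chosen after its values were seen, the 5 nearest were Tiparp (distance 0.258), Ugt1a6a (0.445), Vnn1 (0.472), Gsta3 (0.49) and Adh7 (0.571), with log2 changes between 1.94 for Adh7 and 2.4 for Tiparp. Tiparp encodes an ADP-ribosyltransferase that curbs AhR, Vnn1 a pantetheinase, Gsta3 a glutathione transferase and Adh7 a retinol-oxidising alcohol dehydrogenase; Ugt1a6a shares exons with its neighbours, so its counts are uncertain. For Ces2e, the Ces2 member of highest TPM, they were Arap2 (0.565), Itga1, Pcx, Lpar4 and Rab3b (0.644), all with log2 changes between 0.71 and 1.01. For Ces1f, the Ces1 member of highest mean TPM, they were Jun (0.411), Gm7908, Ppp1r15a, Ddx59 and Ier2 (0.525), none of them called, on 64 counts of Ces1f. The 6 libraries form 2 groups, and a like difference between groups alone makes genes close.

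**Figure D4:**
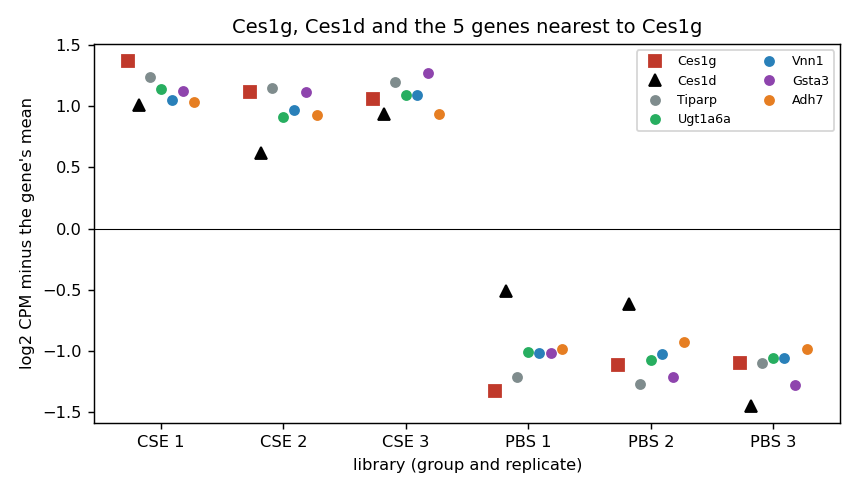
Log2 CPM minus each gene's mean over the 6 libraries, for Ces1g, Ces1d and the 5 genes nearest to Ces1g. All 7 genes are above 0 in each CSE library and below 0 in each PBS library, and Ces1d spreads more among the PBS libraries (−0.51, −0.62 and −1.45) than Ces1g does (−1.33, −1.12 and −1.10).

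**Figure D5:**
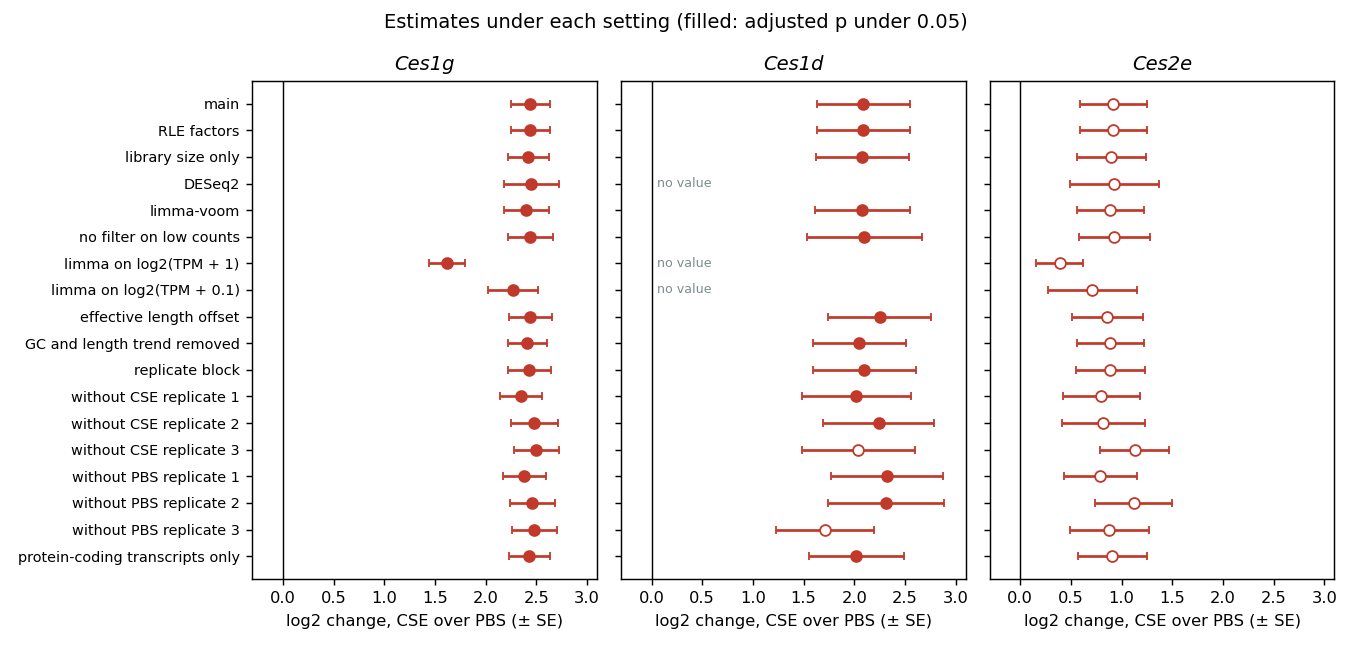
Log2 change in CSE over PBS (± SE) of Ces1g, Ces1d and Ces2e under each setting of the analysis, with filled points at an adjusted p under 0.05. Ces1g lies between 1.62 and 2.50 and is filled throughout, Ces1d is open without CSE replicate 3 and without PBS replicate 3 and has no value where no adjusted p was given, and Ces2e is open throughout.

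The settings plot sets the 3 members with the largest log2 changes side by side. Ces1g was called under every setting in which it was tested, Ces1d under all but 2 of those that gave it an adjusted p, and Ces2e under none.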

How the data were processed

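The deposited tables give, for 118489 transcripts per library, an estimated count and TPM; per the file headers the columns carry kallisto's names. The submitters' processing notes list FastQC 0.12.1, fastp 0.20.1, kallisto 0.46.2 and DESeq2 1.40.2, with the build GRCm38. Which index and strand setting were used is not stated. Reads that fit several near-identical transcripts are divided among them by kallisto's estimate, so such counts need not be whole.

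Versioned identifiers matched 116816 transcripts (98.6%) to GENCODE vM21, and those without a match carried at most 0.664% of the counts in any library. Both measures were summed by gene, with counts rounded to whole numbers. Groups and replicate numbers came from the sample titles. The main test was edgeR's quasi-likelihood test, two-sided, after filterByExpr (minimum count 10) and TMM scaling (factors 0.976 to 1.027), with a threshold of 0.05 on the adjusted p; SE is the log2 change divided by the root of F. The script was tested on simulated data. Genes below the filter were given counts, a ratio scaled to depth with an exact binomial 95% interval, and an exact permutation test. Replicates differed beyond sampling noise (chi-square per degree of freedom 5.61 or more). Intervals cover counting error only, since counts were pooled over the 3 libraries of a group and variation between libraries was left out. Reads are not independent molecules, so even the counting error may be understated.

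The members and lists were chosen with earlier results of these data known. The text names the 9 members, their transcripts with at least 10 counts, tested neighbours and carboxylesterases, and up to 4 genes of smallest p per list; Ces1h and other untested carboxylesterases, the coding transcript of Ces1f, markers and genes at low counts were added after their values were seen. Alternative settings covered the scaling (RLE factors, library size only), the tool (DESeq2, limma-voom), the filter, limma on log2(TPM + 1) and log2(TPM + 0.1), an effective-length offset, a GC and length trend (loess, span 0.5), a replicate block, single libraries left out and, chosen after seeing the data, protein-coding transcripts only. Software versions were Python 3.11.15 with scipy 1.17.1, and DESeq2 1.42.0, limma 3.58.1 and edgeR 4.0.16 under R 4.3.3.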

Additional observations from a re-analysis of the deposited data

How the results depend on the processing

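Of the 9 members, 5 of them tested, 2 were called higher in CSE by edgeR (3 had an unadjusted p under 0.05) and 0 lower (0 at an unadjusted p under 0.05, and 0 by DESeq2). Over all tested genes 4.32% were called higher and 7.12% lower. The share of all genes with an unadjusted p under 0.05 was not taken, so the counts at that limit have no background here. The count of members called higher was 1 with DESeq2, which gave no adjusted p for Ces1d, Ces1f and Ces2g. It was 1 with limma on log2(TPM + 1) and 1 with limma on log2(TPM + 0.1), where Ces1d is below the minimum of 1 TPM, and 1 to 2 with single libraries left out. It was 2 under the other settings that tested members, and no setting called a member lower. A minimum mean of 5 CPM left no member to test. The log2 change ranged from 1.62 to 2.50 for Ces1g, from 1.71 to 2.32 for Ces1d and from 0.39 to 1.13 for Ces2e. With single libraries left out it ran from −0.38 to 0.18 for Ces1f, positive at 0.06 without CSE replicate 3 and 0.18 without PBS replicate 1. For Ces2g it ran from −0.32 to 0.14, positive at 0.14 without CSE replicate 2, 0.01 without PBS replicate 2 and 0.13 without PBS replicate 3. The cause was not tested.

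With the replicate number as a block, 2 members were again higher, and 1022 genes were called in all, against 1539 without it. That count was 998 with limma on log2(TPM + 1), 985 with log2(TPM + 0.1), and 837 to 1941 with single libraries left out. The deviations of same-numbered libraries had correlations of −0.124, 0.006 and −0.059, and no label says what a shared number means, so the numbers were not taken as pairs. Depth limits most members: 7 of the 9 had 64 counts or fewer over the 6 libraries, and 2 of these had none.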
